A study of Mus musculus with 28 samples.

Results

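The genes described here are the solute carriers measured in whole mouse kidney, apart from the mitochondrial Slc25a carriers. A member was any gene of the whole kidney table whose symbol is Slc followed by a family number and a letter, except symbols starting with Slc25a and except Slc12a1, Slc12a3, Slc4a1 and Slc26a4. Of 12315 genes 230 were members, in 47 numbered families, left from 273 symbols before the exclusions. By the place where their product is known to work, 164 act at the plasma membrane and 61 in membranes inside the cell. The other 5 bear the prefix without being carriers, among them Slc9a3r1 and Slc9a3r2, which encode the scaffold proteins NHERF1 and NHERF2. CPM are read counts normalised to a scaled library size, as deposited. All 230 had a mean of at least 1 CPM over the kidney libraries, and 64 had a wild-type mean of at least 100 CPM.

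The series set 4 genotypes of female C57BL/6 littermates, aged 7 to 9 months, beside each other: wild-type mice, Rhbdf2-/- mice, Fcgr2b-/- mice and Fcgr2b-/-Rhbdf2-/- mice, called double mutant here. Titles of the double-mutant libraries name the Rhbdf2 allele alone, and their genotype label names both. Fcgr2b encodes the inhibitory receptor for IgG, and its loss is known to lead to lupus-like autoimmunity with nephritis. Rhbdf2 encodes iRhom2, which brings the protease ADAM17 to the cell surface, and the series asked what its loss changes in that nephritis. There were 16 libraries of polyadenylated RNA from whole kidneys of perfused mice, 4 per genotype, and 12 libraries of macrophages sorted from kidney, 3 per genotype, which are used here only for levels.

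Solute carriers move small molecules across membranes. Most of those at the plasma membrane of the kidney sit in the proximal tubule, where carriers of the brush border take glucose, phosphate, amino acids and lactate back from the filtrate, and carriers of the basolateral side pass them on to the blood or draw organic anions and cations out of it for secretion. The sodium gradient that drives many of them is set by the sodium pump, and bicarbonate and proton carriers join sodium uptake to acid secretion. Family members that bring amino acids into growing or stressed cells, or serve lysosomes and phagosomes of macrophages, are also found in kidney tissue.

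Reads recovered per kidney library ranged from 29016608 to 41617059, which put 1 read at 0.0226 to 0.0354 CPM. No member fell to 3 reads or fewer in any library. Deposited CPM of all genes summed to 8.235e+05 to 9.853e+05 in Fcgr2b-/- libraries and 1.029e+06 to 1.067e+06 in wild-type ones. The library sizes behind them were therefore scaled, and summed CPM levels given below carry that scaling. Genotypes are those of the labels. Reads of the targeted genes did not check them: Rhbdf2 ranged from 10.8 to 12.3 CPM in Rhbdf2-/- libraries against 12.9 CPM in wild-type ones, and Fcgr2b from 23.4 to 34.2 CPM in Fcgr2b-/- libraries against 29.3 to 35.8 CPM. In the double mutants Rhbdf2 reached 19.7 CPM (from 9.29) and Fcgr2b 41.5 CPM (from 20.7), above the wild-type maximum. Rhbdf2 was at 25.0 to 37.1 CPM in Fcgr2b-/- libraries, so every double-mutant value lay below that genotype. Fcgr2b was at 31.7 to 35.3 CPM in Rhbdf2-/- libraries, inside the double-mutant range. The sources used here do not state which part of either gene was deleted. Every lane held kidney libraries of a single genotype, so an effect of lane cannot be told apart from an effect of genotype. Of the double-mutant libraries, number 4 stood apart: its summed level of 19 macrophage markers was 523.8 CPM, against 1377, 2103 and 2458 CPM in the other double mutants and 293.2 to 371.6 CPM in wild-type libraries. Mitochondrially encoded genes took 14.5% of reads in Fcgr2b-/- library 4 and 14.3% in double-mutant library 4, against 10.4% to 11.8% in wild-type libraries. The other Fcgr2b-/- libraries, at 5.87% to 9.06%, and the other double mutants, at 9.19% to 9.73%, lay below wild-type.

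A smaller share of the kidney signal came from these genes after loss of Fcgr2b. Members took 3.15% to 3.37% of the summed CPM of all genes in wild-type libraries and 3.05% to 3.25% in Rhbdf2-/- libraries. They took 1.9% to 2.52% in Fcgr2b-/- libraries and 2.74% to 2.92% in double mutants. The Fcgr2b-/- range lay below the other 3 ranges without overlap, and the double-mutant range lay between it and wild-type. In whole tissue, fewer cells of a type and less RNA per cell cannot be told apart, here and in every result that follows.

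In Fcgr2b-/- against wild-type kidney, 116 members were lower and 44 higher, and the remaining 70 were not called. A gene was called at a limma adjusted p below 0.05, with adjustment over all 12315 genes, and changes are differences of mean log2(CPM+1). The background was high: 60.3% of all genes were called, 30.8% lower and 29.5% higher. Members were lower more often than that, at 50.4%, and higher less often, at 19.1%. Their median log2 change was -0.32, against -0.01 over all genes, and changes ran from -4.29 to 3.05. In 100 members the 4 Fcgr2b-/- values lay wholly below the 4 wild-type values and in 30 wholly above (26.4% and 25.3% of all genes). Among plasma membrane carriers alone 88 of 164 were lower and 32 higher, with a median of -0.48, and among intracellular ones 28 of 61 were lower and 12 higher, with a median of -0.17. The 5 genes that are not carriers held 0 calls. The mitochondrial Slc25a carriers, which were left out of the members, held 26 lower and 2 higher of 39.

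Between double-mutant and Fcgr2b-/- kidney the balance was the other way, with 91 members higher and 38 lower in the double mutant. Of all genes 45.3% were called, 22.5% higher and 22.8% lower, against 39.6% and 16.5% of members. The median of members was 0.19 on the log2 scale. This comparison shares the Fcgr2b-/- libraries with the one before, so the 2 sets of values are given side by side and not as separate evidence. No member, 0 of 230, was called in the same direction in both. The interaction, which is the change with Fcgr2b loss in Rhbdf2-/- mice less that in mice with Rhbdf2, was called in 84 members, 68 positive and 16 negative, where 27.8% of all genes were called and 13.9% in each direction. In the double mutant against wild-type kidney 22 members were called (7.29% of all genes), and 20 of those 22 calls ended when wild-type library 1 or wild-type library 4 was left out. Values without those 2 libraries are given beside each such call that is described.

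**Figure D1:**
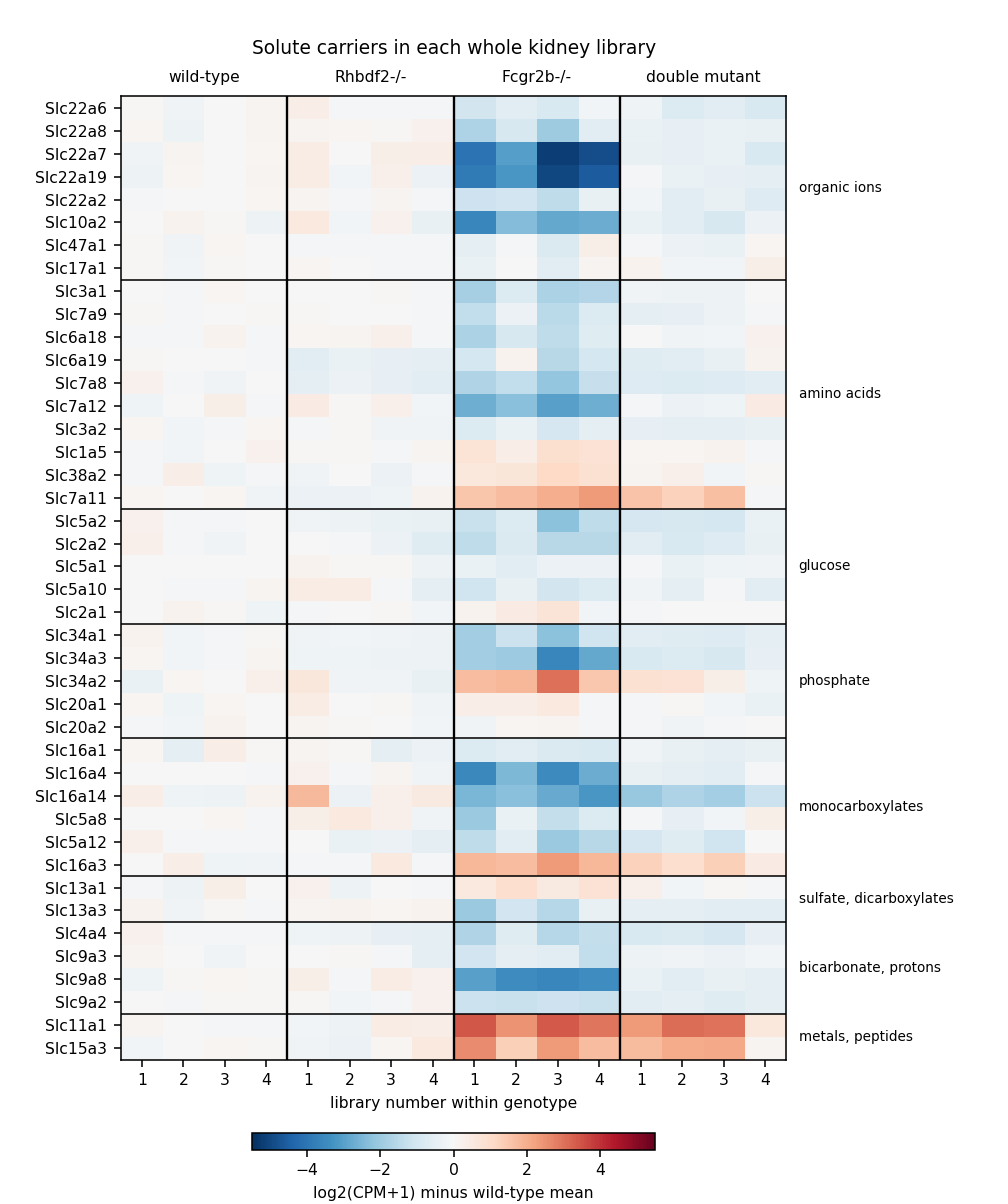
Colour shows log2(CPM+1) of each carrier in each of the 16 kidney libraries minus the wild-type mean, with rows grouped by substrate and columns by genotype, where blue is lower and red higher. The 4 Fcgr2b-/- columns are blue for most organic ion, glucose and monocarboxylate carriers, while double-mutant library 4 is nearly white for Slc7a11 and pale for Slc11a1.

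Most proximal tubule markers were lower too. Of 23 proximal tubule markers that are not solute carriers, among them Lrp2, the endocytic receptor megalin, 22 were lower in Fcgr2b-/- kidney with a median log2 change of -1.31, and 18 were higher in double-mutant than in Fcgr2b-/- kidney. Their summed level was 38580 to 42370 CPM in wild-type libraries, 9621 to 20010 CPM in Fcgr2b-/- libraries and 29580 to 34230 CPM in double mutants. Of 10 markers of the loop of Henle and distal tubule 8 were lower and 1 higher in Fcgr2b-/- kidney, with a median of -0.91. Their sums were 5383 to 7454 CPM against 9300 to 10060 CPM in wild-type. Egf (-2.74 ± 0.24) and Pvalb (-5.05 ± 0.44) had the deepest falls. Umod, at 3830 to 6060 CPM in Fcgr2b-/- libraries against 5250 to 5720 CPM in wild-type, was not called (-0.23 ± 0.16). Cldn16 was the marker that was higher (1.07 ± 0.15). Of 9 collecting duct markers 0 were lower and 2 higher. All 19 macrophage markers rose in Fcgr2b-/- kidney, with a median of 2.80 and sums of 1380 to 3572 CPM. Lrp2 itself was at 425 to 1030 CPM in Fcgr2b-/- libraries against 2330 to 3310 CPM in wild-type, and the macrophage marker Cd68 at 24.1 to 60.1 CPM against 3.98 to 5.68 CPM. The part of these marker shifts in the carrier results was not tested.

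Early segments of the proximal tubule, S1 and S2, use other carriers than its late segment, S3. All 10 measured early carriers were lower in Fcgr2b-/- kidney, with a median log2 change of -1.31, and 7 were higher in double-mutant than in Fcgr2b-/- kidney. The 3 late carriers, Slc5a1, Slc6a18 and Slc22a7, were lower as well, with a range from -0.40 to -4.29. In the double mutant against wild-type, 3 of the 10 early carriers (Slc22a6, Slc2a2 and Slc4a4) and 0 of the 3 late ones were lower (2.77% of all genes). Each of those 3 calls ended without wild-type library 1 or 4. The late carrier Slc22a7 stood at -0.52, with values wholly below wild-type but no call. With so few late carriers, these counts do not set early and late segments apart.

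**Figure D2:**
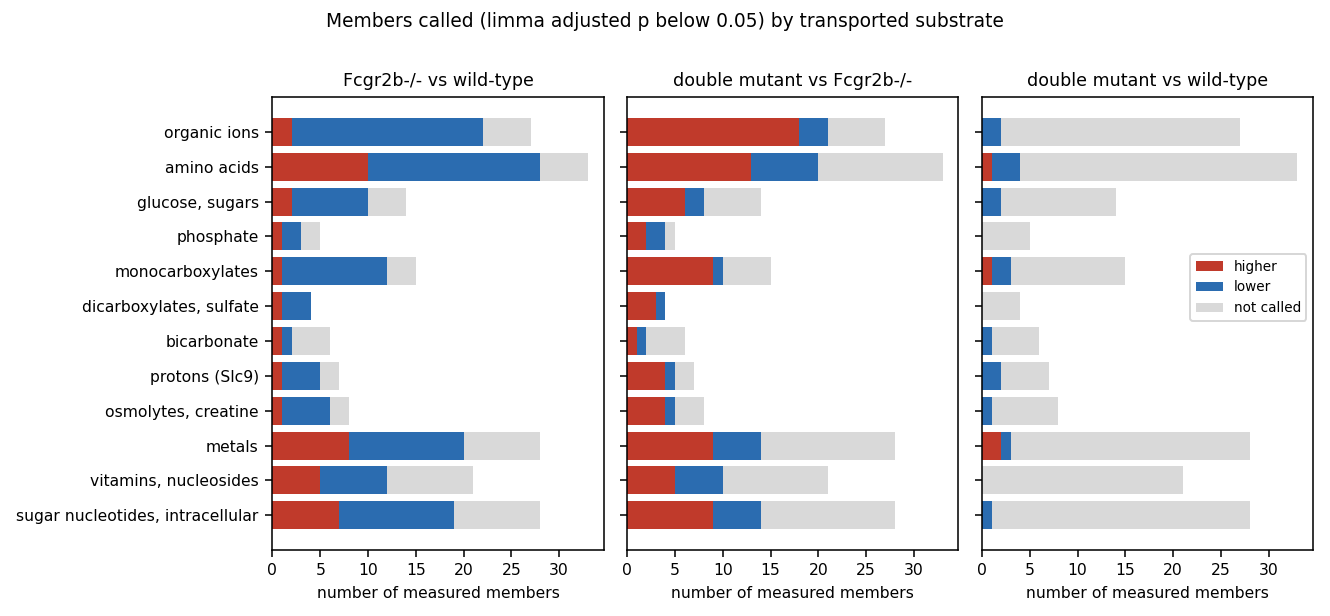
Bars count the measured members of each substrate group that were higher, lower or not called at a limma adjusted p below 0.05 in 3 comparisons. Lower calls lead in Fcgr2b-/- against wild-type kidney (20 of 27 organic ion carriers), higher calls lead in double-mutant against Fcgr2b-/- kidney (18 of 27), and few members were called in double-mutant against wild-type kidney.

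Organic ion carriers secrete drugs, bile acids, uric acid and waste products, and they held both the deepest falls and some of the steadiest members. Of 27 measured, 20 were lower and 2 higher in Fcgr2b-/- kidney, with a median log2 change of -1.06. In the double mutant against Fcgr2b-/- kidney 18 were higher and 3 lower, with a median of 0.88. Their summed level was 4741 to 5475 CPM in wild-type libraries and 1820 to 3460 CPM in Fcgr2b-/- libraries. Of the 20 members of family Slc22, 16 were lower and 2 higher in Fcgr2b-/- kidney.

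Slc22a7 encodes the organic anion transporter OAT2 and lies on chromosome 17 from 46432184 to 46438477 (mm10). It measured 289, 366, 328 and 359 CPM in the wild-type libraries, 439, 342, 424 and 430 in Rhbdf2-/-, 19.2, 40, 8.25 and 10.3 in Fcgr2b-/- and 250, 245, 257 and 187 in the double mutants. The Fcgr2b-/- values lay far below all others, and the double-mutant values lay a little below wild-type without overlap. The log2 change was -4.29 ± 0.32 (SE; limma adjusted p = 1.54e-07) in Fcgr2b-/- against wild-type kidney, the largest fall of any member, and 3.77 ± 0.32 in the double mutant against Fcgr2b-/- (limma adjusted p = 1.39e-06). Against wild-type the double mutant stood at -0.52 ± 0.32, which was not called (limma adjusted p = 0.357). The interaction was 3.49 ± 0.46 (limma adjusted p = 0.000171).

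Slc22a19, which encodes the organic anion carrier OAT5, followed closely and lies on chromosome 19 from 7673060 to 7711310. Its wild-type libraries measured 250, 327, 293 and 335 CPM, the Rhbdf2-/- libraries 402, 272, 364 and 239, the Fcgr2b-/- libraries 19.2, 31.7, 8.34 and 11.5 and the double mutants 276, 234, 216 and 208. The log2 changes were -4.17 ± 0.29 and 3.81 ± 0.29 in the 2 comparisons with Fcgr2b-/- kidney. Slc22a26 and Slc22a29 changed by -3.54 ± 0.50 and -2.90 ± 0.19 in Fcgr2b-/- kidney and by 2.27 ± 0.50 and 2.39 ± 0.19 in the double mutant against it. These 3 belong to a cluster of close copies on chromosome 19, and the sources used here do not state how reads were shared among copies, so their separate values are uncertain. Slc22a7, Slc22a26 and Slc22a29 are also among carriers known to differ between female and male kidneys, and so is Slc7a12. Of 6 measured carriers of that kind 6 were lower in Fcgr2b-/- kidney (30.8% of all genes), with a median of -2.79. In the double mutant 5 were higher than in Fcgr2b-/- kidney (22.5% of all genes). That list was chosen with earlier results of these data known.

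The main carriers of the basolateral secretory step moved less. Slc22a6 encodes OAT1, which exchanges organic anions for dicarboxylates. It measured 514, 433, 480 and 548 CPM in wild-type, 630, 467, 475 and 456 in Rhbdf2-/-, 241, 316, 271 and 440 in Fcgr2b-/- and 417, 288, 318 and 276 in double-mutant libraries. Fcgr2b-/- library 4 reached into the wild-type range, and the double-mutant values lay below wild-type without overlap. Slc22a6 fell by 0.67 ± 0.17 on the log2 scale in Fcgr2b-/- kidney (limma adjusted p = 0.00391) and the 2 mutants differed by 0.05 ± 0.17, which was not called (limma adjusted p = 0.821). The double mutant stood at -0.62 ± 0.17 against wild-type (limma adjusted p = 0.0443), with -0.60 and -0.57 without wild-type library 1 or 4. This call was also lost in limma-voom (-0.62, limma adjusted p = 0.0641), with median centring (-0.59) and without mitochondrial genes (-0.62), and in 10 of the 16 fits with a library left out.

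Slc22a8, which encodes OAT3, and Slc22a2, which encodes the organic cation transporter OCT2, were lower by more. Slc22a8 changed by -1.28 ± 0.22 in Fcgr2b-/- kidney and 0.88 ± 0.22 in the double mutant against it. Slc22a2 changed by -1.0 ± 0.17 and 0.52 ± 0.17, and its second call ended without Fcgr2b-/- library 1 (0.47), Fcgr2b-/- library 3 (0.38) or double-mutant library 1 (0.41). Slc47a1, which encodes the cation extruder MATE1 of the luminal exit step, was not called (-0.26 ± 0.18). Nor was Slc17a1, a phosphate and urate carrier of the brush border (-0.20 ± 0.15). They do not stand for all luminal carriers, and Slc17a2, a relative of Slc17a1 given below, was lower. Slc22a12, which encodes the urate carrier URAT1, stood at -0.47 ± 0.26 and Slc2a9, the other urate carrier, at 0.31 ± 0.26. Without Fcgr2b-/- library 4 the changes of Slc47a1 (-0.45) and Slc22a12 (-0.72) were called, and without Fcgr2b-/- library 1 that of Slc2a9 (0.59).

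Family Slc10 held 2 lower members of 3. Slc10a2, the sodium-dependent bile acid carrier ASBT, measured 90.1, 101, 94.1 and 72.5 CPM in wild-type, 6.4, 16, 11.7 and 12.6 in Fcgr2b-/- and 67.9, 59.7, 48.3 and 70.6 in double-mutant libraries. Its log2 changes were -2.89 ± 0.23 in Fcgr2b-/- kidney and 2.35 ± 0.23 in the double mutant against it. Slc10a5, an orphan of the same family, changed by -2.06 ± 0.12 and 1.61 ± 0.12. Slc10a7, named after its value was seen, stood at 0.03 ± 0.07 in Fcgr2b-/- kidney and was not called. Slc17a2, a relative of Slc17a1, changed by -2.86 ± 0.29 and 2.52 ± 0.29. Slc22a15, a carrier of zwitterions, was an organic ion carrier that rose, at 1.00 ± 0.26 in Fcgr2b-/- kidney.

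Amino acid carriers were called in both directions. Of 33 measured, 18 were lower and 10 higher in Fcgr2b-/- kidney, with a median log2 change of -0.41. In the double mutant 13 were higher and 7 lower than in Fcgr2b-/- kidney. Summed levels were 5561 to 6027 CPM in wild-type and 2665 to 4030 CPM in Fcgr2b-/- libraries. In family Slc6, 9 of 12 members were lower and 2 higher, whereas in family Slc7 4 of 9 were lower and 4 higher.

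Slc3a1 and Slc7a9 encode the 2 subunits of the cystine and dibasic amino acid carrier of the brush border, rBAT and b0,+AT. Slc3a1 measured 867, 793, 912 and 831 CPM in wild-type, 810 to 876 in Rhbdf2-/-, 236, 501, 256 and 281 in Fcgr2b-/- and 749, 694, 696 and 858 in double-mutant libraries. Fcgr2b-/- library 2 was the highest of its group and still below every other genotype, and the double-mutant range overlapped wild-type. The log2 changes were -1.48 ± 0.17 (limma adjusted p = 6.1e-06) in Fcgr2b-/- kidney and 1.29 ± 0.17 in the double mutant against it (limma adjusted p = 4.62e-05). Its partner Slc7a9 changed by -0.98 ± 0.19 and 0.66 ± 0.19.

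Slc7a12, which encodes the amino acid carrier asc-2, had the deepest fall of this group. It measured 314 to 459 CPM in wild-type, a mean of 420 ± 74.3 (SD, n = 4) in Rhbdf2-/-, 56.1, 73.7, 46.2 and 57.7 in Fcgr2b-/- and 350, 295, 316 and 501 in double-mutant libraries. The changes were -2.67 ± 0.18 and 2.61 ± 0.18, and the double mutant differed from wild-type by -0.05 ± 0.18 (limma adjusted p = 0.891), within the spread between libraries. Slc6a18, which takes up glycine in the late proximal tubule, changed by -1.16 ± 0.19 and 1.12 ± 0.19. Slc6a19, which encodes the main neutral amino acid carrier B0AT1, was at 242, 537, 163 and 236 CPM in Fcgr2b-/- libraries against 449 to 484 CPM in wild-type. Its fall of -0.81 ± 0.27 (limma adjusted p = 0.0162) ended as a call without Fcgr2b-/- library 3 (-0.58, limma adjusted p = 0.0588), and library 2 lay above all wild-type values. Tmem27, which encodes the partner that carries B0AT1 to the brush border, changed by -0.81 ± 0.19.

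Slc7a8, Slc3a2 and Slc7a7 encode parts of the carriers of the basolateral exit. Slc7a8, the light chain LAT2, measured 698, 564, 524 and 613 CPM in wild-type, 408, 481, 441 and 399 in Rhbdf2-/-, 189, 235, 136 and 244 in Fcgr2b-/- and 365, 357, 368 and 384 in double-mutant libraries. The 4 genotypes did not overlap, in the order wild-type, Rhbdf2-/-, double mutant and Fcgr2b-/-, though Rhbdf2-/- against wild-type was not called (-0.47 ± 0.15, unadjusted p = 0.00626). Fcgr2b-/- kidney stood at -1.60 ± 0.15 and the double mutant at -0.69 ± 0.15 against wild-type (limma adjusted p = 0.0172). Slc3a2, the heavy chain 4F2hc, changed by -0.62 ± 0.11 in Fcgr2b-/- kidney and -0.46 ± 0.11 in the double mutant against wild-type. Without wild-type library 1 or 4 the double-mutant values were -0.62 and -0.68 for Slc7a8 and -0.43 and -0.42 for Slc3a2. The light chain Slc7a7, y+LAT1, changed by -0.59 ± 0.17 in Fcgr2b-/- kidney and stood at -0.39 ± 0.17 in the double mutant against wild-type, which was not called (limma adjusted p = 0.188).

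Of 8 measured carriers that feed growing cells, 6 were higher in Fcgr2b-/- kidney, with a median of 0.75, and Slc3a2 was lower. Of all genes 29.5% were higher, and of all amino acid carriers 30.3%, near that share. The list of 8 was chosen with earlier results of these data known. In the double mutant against Fcgr2b-/- kidney 4 of the 8 were lower and 0 higher (22.8% and 22.5% of all genes). The summed level of the 8 was 569.8 to 643.3 CPM in Fcgr2b-/- libraries and 603.1 to 672.9 CPM in wild-type, which overlap. Slc1a5 and Slc38a2 are named as examples chosen after their values were seen. Slc1a5, the glutamine carrier ASCT2, measured 67.4, 52.6, 75.7 and 70.9 CPM in Fcgr2b-/- libraries, above the 35.8 to 47.1 CPM of wild-type and the 37.8 to 46.4 CPM of double mutants. It changed by 0.71 ± 0.11 in Fcgr2b-/- kidney and -0.62 ± 0.11 in the double mutant against it. Slc38a2, the adaptive system A carrier SNAT2, changed by 0.79 ± 0.14 and -0.71 ± 0.14. Slc38a4, a system A member outside that list, stood at -0.97 ± 0.18 in Fcgr2b-/- kidney.

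Slc7a11 encodes xCT, which exchanges cystine for glutamate and supports glutathione synthesis, and it had the lowest level per length of all 230 members in wild-type kidney. It lies on chromosome 3 from 50364935 to 50443613. The wild-type libraries measured 0.559, 0.424, 0.544 and 0.239 CPM, the Rhbdf2-/- libraries 0.152, 0.147, 0.233 and 0.622, the Fcgr2b-/- libraries 3.1, 3.62, 4.79 and 6.24, and the double mutants 3.2, 2.49, 3.54 and 0.382. Double-mutant library 4, which was low in macrophage markers, sat at the wild-type level, and the other 3 were near the Fcgr2b-/- range. The mean of Slc7a11 over all kidney libraries reached 1 CPM only through the Fcgr2b-/- and double-mutant values. On the log2(CPM+1) scale, which understates change at such levels, Slc7a11 changed by 1.89 ± 0.31 in Fcgr2b-/- kidney (limma adjusted p = 0.000117), and by 3.35 on the deposited log2 CPM. The double mutant stood at 1.11 ± 0.31 against wild-type (limma adjusted p = 0.0423), with 1.15 and 1.04 without wild-type library 1 or 4. On the deposited log2 CPM that value was 2.11 and was not called (limma adjusted p = 0.0651), nor was it with a pseudocount of 0.1 (1.91), in limma-voom (2.28) or with only the 2 groups in the fit (1.11). The authors' deposited table did call it, at 2.52 (adjusted p = 0.0152). Among sorted macrophages the 3 Fcgr2b-/- libraries held Slc7a11 at 32.2 to 45.9 CPM and the 3 double mutants at 0.162 to 10 CPM. The wild-type macrophages lay at 0.307 to 0.544 CPM and the Rhbdf2-/- ones at 0.184 to 0.294 CPM.

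Promoters of Slc7a11 and Slc3a1, 2 amino acid carriers that moved in opposite directions, are shown as a chosen pair, with the letters matched in each. For Slc7a11 the letters are TGATGNAA, the core of the element bound by ATF4, the factor of the amino acid response, and capitals mark 2 matches that face each other, the first 66 bases before the start (chr3:50443614-50443863, minus strand). Windows were the 250 bases before each start in RefSeq (GRCm38.p6), searched on both strands.
Slc7a11 promoter: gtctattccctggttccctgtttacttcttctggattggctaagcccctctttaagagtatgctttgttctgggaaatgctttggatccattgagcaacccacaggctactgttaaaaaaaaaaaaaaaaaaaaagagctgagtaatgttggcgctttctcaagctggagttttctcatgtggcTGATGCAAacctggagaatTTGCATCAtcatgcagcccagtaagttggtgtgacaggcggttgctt
For Slc3a1 they are CAAAGTCCA, an element bound by HNF4 factors, 39 bases before the start (chr17:85028097-85028346, plus strand).
Slc3a1 promoter: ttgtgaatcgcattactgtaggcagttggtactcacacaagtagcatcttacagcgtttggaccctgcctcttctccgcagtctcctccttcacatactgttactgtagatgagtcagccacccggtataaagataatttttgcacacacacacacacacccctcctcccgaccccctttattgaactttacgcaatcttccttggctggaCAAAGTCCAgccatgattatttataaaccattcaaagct
TGATGNAA was in 6 of 173 members with a window (3.47%), against 3.91% of all genes in the promoter table and 2.38% of the genes of the kidney table. Of these 6, 3 were among 34 members called higher in Fcgr2b-/- kidney (8.82%), 1 among 96 called lower (1.04%) and 2 among 43 not called (4.65%). They include Slc7a7, which was lower in Fcgr2b-/- kidney, and Slc17a1, which was not called. CAAAGTCCA was in 1 member, against 0.451% and 0.431%. Also searched was TGACNNNGC, the letters of the antioxidant element. It was in 26 of 173 members (15.0%), against 11.5% of all genes in the promoter table and 14.1% of the genes of the kidney table. By call it was in 10 of 34 higher members (29.4%), 11 of 96 lower (11.5%) and 5 of 43 not called (11.6%). A match of letters is a description of the window, and none of these shares says anything of binding. Hnf4a, a regulator of tubule genes, changed by -0.99 ± 0.17 in Fcgr2b-/- kidney. Atf4 rose by 0.46 ± 0.09 in Fcgr2b-/- kidney. Of 8 ATF4 target genes that are not carriers 5 were higher and 1 lower, where 29.5% and 30.8% of all genes were. Asns, which encodes asparagine synthetase, rose by 1.01 ± 0.20. The part of Hnf4a or Atf4 in the carrier changes was not tested.

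Slc5a2 and the other measured members of family Slc5, which holds the sodium-glucose carriers, were lower in Fcgr2b-/- kidney. Of 14 measured carriers of glucose and other sugars, 8 were lower and 2 higher in Fcgr2b-/- kidney, with a median log2 change of -0.56, and all 8 members of family Slc5 were lower. Slc5a2 encodes SGLT2, the sodium-glucose carrier of the early proximal tubule and target of the gliflozin drugs. It measured 643, 499, 509 and 543 CPM in wild-type, 474, 452, 426 and 417 in Rhbdf2-/-, 234, 321, 113 and 204 in Fcgr2b-/- and 284, 294, 277 and 423 in double-mutant libraries. Every double-mutant value was below every wild-type value and the Fcgr2b-/- and double-mutant ranges overlapped.

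Slc5a2 changed by -1.41 ± 0.23 in Fcgr2b-/- kidney (limma adjusted p = 0.000117) and 0.62 ± 0.23 in the double mutant against it (limma adjusted p = 0.0392). The second call ended without Fcgr2b-/- library 3 (0.34) or library 4 (0.62, limma adjusted p = 0.0608), or without double-mutant library 2 (0.65, limma adjusted p = 0.0542) or library 4 (0.48). Against wild-type the double mutant stood at -0.79 ± 0.23, just short of a call (limma adjusted p = 0.0504), and it was called without double-mutant library 4 (-0.93, limma adjusted p = 0.0163) or Fcgr2b-/- library 2, 3 or 4 (-0.79 each). The authors' deposited table changes both calls of Slc5a2. It does not call the double mutant against Fcgr2b-/- kidney (0.55, adjusted p = 0.0635) and calls it against wild-type (-0.78, adjusted p = 0.0478). With only the 2 groups in the fit both calls changed in the same way. Slc2a2, which encodes GLUT2 at the basolateral side of the same cells, changed by -1.32 ± 0.17 in Fcgr2b-/- kidney, 0.66 ± 0.17 in the double mutant against it and -0.66 ± 0.17 in the double mutant against wild-type. That last value was -0.57 and -0.65 without wild-type library 1 or 4.

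Slc5a1, which encodes SGLT1 of the late proximal tubule, fell less, by 0.40 ± 0.09. Its 4 wild-type libraries measured 121 to 124 CPM and the Fcgr2b-/- ones 81.1 to 98.9 CPM, without overlap. Slc5a10, a fructose and mannose carrier, changed by -0.81 ± 0.20. Slc2a1, the general carrier GLUT1, stood at 0.31 ± 0.13 (limma adjusted p = 0.0581) and Slc2a3, GLUT3, at 0.53 ± 0.25 (limma adjusted p = 0.0798). Without Fcgr2b-/- library 4 both were called, at 0.46 and 0.79, and Slc2a1 also without wild-type library 2 (0.37). The authors' deposited table calls both, Slc2a1 at 0.34 (adjusted p = 0.0414) and Slc2a3 at 0.91 (adjusted p = 0.0308).

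Phosphate is taken back by carriers of family Slc34 at the brush border and taken up by most cells through family Slc20, and the 3 Slc34 members went in different directions. Slc34a1, which encodes NaPi-2a, had the highest level of all members, at 1860 ± 198 CPM per kb of gene length (SD, n = 4) in wild-type kidney. It lies on chromosome 13 from 55399647 to 55414695. It measured 6510, 5160, 5360 and 5940 CPM in wild-type, 5060, 5180, 4940 and 4780 in Rhbdf2-/-, 1500, 2500, 1180 and 2670 in Fcgr2b-/- and 3660, 3590, 3500 and 4050 in double-mutant libraries. The double-mutant values lay wholly between the Fcgr2b-/- and wild-type values. Changes were -1.62 ± 0.21 in Fcgr2b-/- kidney (limma adjusted p = 1.65e-05), 0.99 ± 0.21 in the double mutant against it (limma adjusted p = 0.00165) and -0.63 ± 0.21 in the double mutant against wild-type, which was not called (limma adjusted p = 0.0848).

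Slc34a3, which encodes NaPi-2c, fell further, from 98.2 to 119 CPM in wild-type to 28.5, 26.8, 7.99 and 14.5 CPM in Fcgr2b-/- libraries, a log2 change of -2.58 ± 0.27. It stood at 60, 64.1, 58 and 80 CPM in double mutants, 1.85 ± 0.27 above Fcgr2b-/- kidney. Slc34a2, NaPi-2b, is better known from lung and intestine, and it rose. It measured 6.87, 10.1, 9.1 and 11.4 CPM in wild-type, 14.9, 7.82, 7.99 and 6.72 in Rhbdf2-/-, 32.5, 35.8, 82 and 27.8 in Fcgr2b-/- and 17.4, 16.9, 11.7 and 7.59 in double-mutant libraries. Its changes were 2.02 ± 0.32 in Fcgr2b-/- kidney (limma adjusted p = 0.000101) and -1.59 ± 0.32 in the double mutant against it (limma adjusted p = 0.0012), and the interaction was -1.55 ± 0.46. Slc20a1 (PiT-1) and Slc20a2 (PiT-2) stood at 0.30 ± 0.14 and -0.02 ± 0.09 in Fcgr2b-/- kidney, neither of them called, though Slc20a1 was without Fcgr2b-/- library 4 (0.42). Some genes known to bear on phosphate uptake were lower in Fcgr2b-/- kidney, and the scaffold genes Slc9a3r1 (-0.21) and Slc9a3r2 (0.15) were not called. Lower were the scaffold gene Pdzk1 (-1.74 ± 0.14), the parathyroid hormone receptor gene Pth1r (-1.06 ± 0.13) and Kl, which encodes the FGF23 coreceptor klotho (-2.03 ± 0.15). The vitamin D receptor gene Vdr was lower as well (-0.89 ± 0.17).

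**Figure D3:**
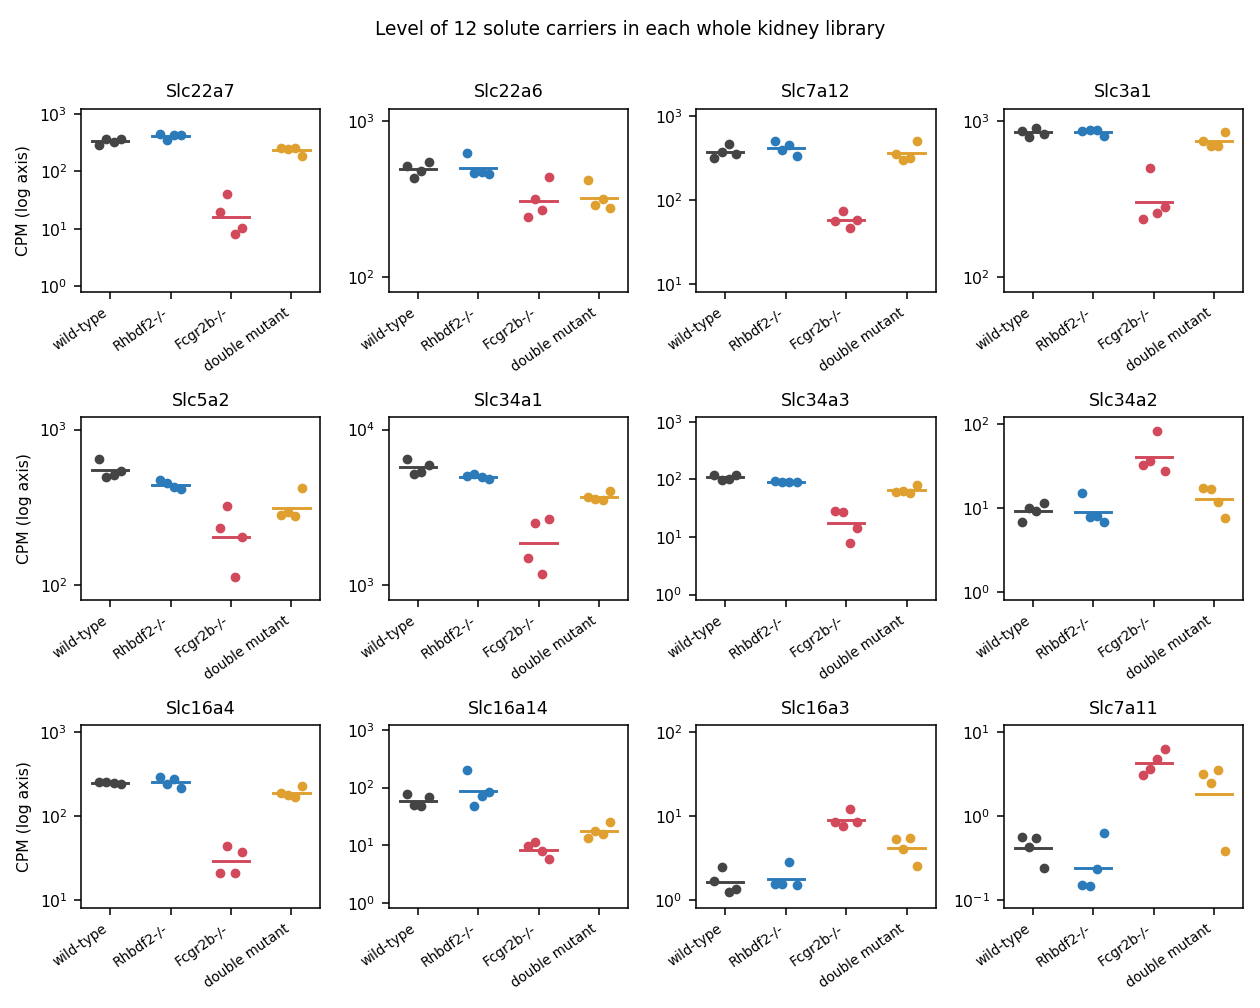
Points give CPM in each kidney library on a log axis for 12 carriers, 4 libraries per genotype, and short lines mark the geometric mean of each genotype. Slc22a7, Slc7a12 and Slc16a4 are lowest in Fcgr2b-/- libraries, Slc16a14 is low in Fcgr2b-/- libraries and in double mutants, and 1 double-mutant library of Slc7a11 lies at the wild-type level.

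Monocarboxylate carriers move lactate, pyruvate and ketone bodies. Of 15 measured, 11 were lower and 1 higher in Fcgr2b-/- kidney, with a median log2 change of -0.91, and 9 were higher and 1 lower in the double mutant against it. Summed levels were 1965 to 2335 CPM in wild-type and 770.6 to 1242 CPM in Fcgr2b-/- libraries. In family Slc16 9 of 13 members were lower and 1 higher.

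Slc16a4, a poorly characterised member of the family, lies on chromosome 3 from 107291229 to 107312115. Its libraries measured 253, 256, 250 and 242 CPM in wild-type, 293, 240, 275 and 216 in Rhbdf2-/-, 20.8, 44.4, 21.3 and 37.3 in Fcgr2b-/- and 188, 180, 169 and 229 in the double mutants. It changed by -3.05 ± 0.20 (limma adjusted p = 5.26e-08) and 2.66 ± 0.20 (limma adjusted p = 5.57e-07). Slc16a14, an orphan of the same family, differed from it in the double mutant, with values of 76.1, 50.5, 48.6 and 67.4 CPM in wild-type, 206, 47.3, 71.9 and 83.8 in Rhbdf2-/-, 9.59, 11.2, 7.83 and 5.66 in Fcgr2b-/- and 13.4, 17.7, 15.4 and 25.5 in double-mutant libraries. Double mutants lay above Fcgr2b-/- kidney and well below the other 2 genotypes, with no overlap. Slc16a14 changed by -2.70 ± 0.34 in Fcgr2b-/- kidney and 0.99 ± 0.34 in the double mutant against it. It was -1.71 ± 0.34 in the double mutant against wild-type (limma adjusted p = 0.0147) and -2.26 ± 0.34 against Rhbdf2-/- (limma adjusted p = 0.00978). The call against Fcgr2b-/- kidney ended without Fcgr2b-/- library 3 (0.96) or 4 (0.82) or double-mutant library 2 (0.98) or 4 (0.81), and the value against wild-type was -1.59 and -1.65 without wild-type library 1 or 4.

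Lactate carriers differed by member. Slc16a3, which encodes MCT4, the lactate exporter of glycolytic cells, was the monocarboxylate carrier that rose. It measured 1.68, 2.46, 1.26 and 1.35 CPM in wild-type, 1.54, 1.57, 2.84 and 1.53 in Rhbdf2-/-, 8.44, 7.54, 12.3 and 8.44 in Fcgr2b-/- and 5.34, 4.09, 5.5 and 2.57 in double-mutant libraries. Changes were 1.92 ± 0.21 (limma adjusted p = 4.22e-06) in Fcgr2b-/- kidney, -0.94 ± 0.21 in the double mutant against it and 0.98 ± 0.21 in the double mutant against wild-type, the last 0.99 and 0.92 without wild-type library 1 or 4. In sorted wild-type macrophages Slc16a3 was at 14.8 to 18.9 CPM. Slc16a1, MCT1, changed by -0.75 ± 0.17 in Fcgr2b-/- kidney. The sodium-coupled lactate carriers of the brush border, Slc5a8 and Slc5a12, changed by -1.11 ± 0.28 and -1.38 ± 0.26. Bsg, which encodes the chaperone of MCT1 and MCT4, changed by -0.35 ± 0.07.

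Among the 4 carriers of sulfate and dicarboxylates, 3 were lower and 1 higher in Fcgr2b-/- kidney. The member that rose was Slc13a1, the sulfate carrier NaS1 of the brush border, at 584 to 785 CPM in Fcgr2b-/- libraries against 395, 343, 513 and 424 CPM in wild-type and 500, 375, 437 and 396 CPM in double mutants. Its changes were 0.68 ± 0.14 (limma adjusted p = 0.000838) and -0.64 ± 0.14 (limma adjusted p = 0.00204), higher where most brush border carriers were lower. Slc13a3, the basolateral dicarboxylate carrier NaDC3 that supplies organic anion exchange, changed by -1.27 ± 0.23 and Slc13a2, NaDC1, by -1.25 ± 0.15 in Fcgr2b-/- kidney. Slc6a6, the taurine carrier, rose too, from 371 to 476 CPM in wild-type to 709, 1060, 710 and 663 CPM in Fcgr2b-/- libraries, a change of 0.84 ± 0.17, and was lower in the double mutant by -0.69 ± 0.17. Slc6a8, the creatine carrier, stood at -0.18 ± 0.11 and was not called, though it was without Fcgr2b-/- library 2 (-0.26).

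Carriers of bicarbonate and protons held the member with the smallest p. Slc9a8 encodes the sodium-proton exchanger NHE8, placed in the Golgi and endosomes and at the proximal brush border, and lies on chromosome 2 from 167421711 to 167477000. It measured 520, 642, 649 and 628 CPM in wild-type, 753, 570, 803 and 724 in Rhbdf2-/-, 75.7, 54.7, 48.9 and 55.2 in Fcgr2b-/- and 467, 392, 464 and 418 in double-mutant libraries. All 4 Fcgr2b-/- libraries were low and close together, including those with milder falls of other carriers. The changes were -3.37 ± 0.13 (limma adjusted p = 5.81e-10), 2.89 ± 0.13 in the double mutant against Fcgr2b-/- kidney and -0.48 ± 0.13 in the double mutant against wild-type (limma adjusted p = 0.0398). The last value was -0.56 and -0.47 without wild-type library 1 or 4.

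Slc9a3, NHE3, the main proton exchanger of the proximal brush border, changed by -0.87 ± 0.16 and 0.63 ± 0.16. Slc9a2, NHE2, changed by -1.19 ± 0.08 and 0.63 ± 0.08 and stood at -0.56 ± 0.08 in the double mutant against wild-type (limma adjusted p = 0.0045). Slc4a4, the basolateral sodium bicarbonate carrier NBCe1, measured 1950, 1530, 1570 and 1580 CPM in wild-type, 1400, 1340, 1220 and 1160 in Rhbdf2-/-, 526, 1030, 556 and 655 in Fcgr2b-/- and 931, 949, 867 and 1210 in double-mutant libraries. Its changes were -1.31 ± 0.18, 0.56 ± 0.18 and, against wild-type, -0.75 ± 0.18 (limma adjusted p = 0.0229). Its value in the double mutant against Fcgr2b-/- kidney fell short of a call without Fcgr2b-/- library 1 (0.44) or 3 (0.47) or double-mutant library 4 (0.46), and that against wild-type was -0.67 and -0.77 without wild-type library 1 or 4. The scaffold genes Slc9a3r1 and Slc9a3r2, whose products hold NHE3 and NaPi-2a at the brush border, were not called, as given with phosphate.

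Slc11a1, Slc15a3, Slc9a9 and Slc37a2 rose in Fcgr2b-/- kidney, where the 19 macrophage markers rose too. Slc15a2, a peptide carrier of the brush border, changed by -1.19 ± 0.22, and Slc11a2, an iron carrier named after its value was seen, by -0.40 ± 0.08. Slc11a1 encodes NRAMP1, a metal ion carrier of the phagosome. It measured 3.89, 3.34, 3.23 and 3.1 CPM in wild-type, 2.93, 2.61, 4.74 and 4.59 in Rhbdf2-/-, 45.9, 23.5, 43.9 and 32.4 in Fcgr2b-/- and 21, 36.3, 33.8 and 5.47 in double-mutant libraries. Double-mutant library 4 was near wild-type, as were its macrophage markers, and the other 3 were inside or near the Fcgr2b-/- range. Slc11a1 changed by 3.05 ± 0.41 in Fcgr2b-/- kidney (limma adjusted p = 2.39e-05), the largest rise of any member, by 2.24 ± 0.41 in the double mutant against wild-type (limma adjusted p = 0.0112) and by -0.81 ± 0.41 between the 2 mutants, which was not called (limma adjusted p = 0.126) but was without double-mutant library 2 (-1.09). In sorted macrophages it was at 659 to 714 CPM in wild-type and 1060 to 1390 CPM in Fcgr2b-/- libraries.

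Slc15a3, a lysosomal histidine and peptide carrier, had the same order. It measured 3.89, 4.56, 4.87 and 4.7 CPM in wild-type, 31.8, 12.6, 26.9 and 16.7 in Fcgr2b-/- and 17.5, 21.4, 22.1 and 5.05 in double-mutant libraries. It changed by 1.98 ± 0.37 in Fcgr2b-/- kidney and by 1.5 ± 0.37 in the double mutant against wild-type (limma adjusted p = 0.0285), with 1.44 and 1.52 without wild-type library 1 or 4. Slc9a9, an endosomal proton exchanger, changed by 1.5 ± 0.33 and Slc37a2, a sugar phosphate carrier of the endoplasmic reticulum, by 1.46 ± 0.32 in Fcgr2b-/- kidney. Sorted wild-type macrophages held Slc15a3 at 81 to 152 CPM, Slc9a9 at 127 to 166 and Slc37a2 at 40.8 to 57. In Fcgr2b-/- macrophages Slc37a2 ranged from 205 to 241 CPM and Slc9a9 from 60.8 to 91.7 CPM, so among macrophages themselves the 2 genes lay on opposite sides of wild-type. The macrophage libraries were made with another kit and scaled apart from the kidney ones, so levels are not compared across tissues.

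Metal carriers as a group moved in both directions. Of 28 measured, 12 were lower and 8 higher in Fcgr2b-/- kidney, which is 42.9% and 28.6% of them against 30.8% and 29.5% of all genes. Slc40a1, the iron exporter ferroportin, stood at 0.04 ± 0.13 in Fcgr2b-/- kidney and Slc39a14, a zinc and iron importer, at -0.30 ± 0.16. Slc30a2, a zinc carrier of secretory vesicles, fell by 1.65 ± 0.15. Slc41a2, a magnesium carrier, was higher in Fcgr2b-/- kidney (0.45 ± 0.13) and in the double mutant (0.52 ± 0.13, limma adjusted p = 0.0267) than in wild-type, the latter 0.47 and 0.53 without wild-type library 1 or 4. Slc27a2, the fatty acid carrier FATP2 and second of all members by level per length, fell from 2460 to 2870 CPM in wild-type to 883, 1810, 929 and 1890 CPM in Fcgr2b-/- libraries, a change of -1.02 ± 0.22.

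Members that changed most were spread over a wide range of levels. The 5 deepest falls were of genes between 14 and 167 CPM per kb in wild-type kidney (Slc22a26, Slc22a19, Slc16a4, Slc9a8 and Slc22a7), well below Slc34a1. Slc7a11 (0.0393 CPM per kb), Slc11a1 (0.916) and Slc34a2 (1.87), which rose by 1.89 to 3.05 log2 units in Fcgr2b-/- kidney, were among the members at the lowest levels. All members had a mean of at least 1 CPM over the kidney libraries. Slc7a11 reached it only through Fcgr2b-/- and double-mutant libraries. A gene that low in every genotype would not be among the members, so rises at the lowest levels are partly fixed in advance. Levels per length use the gene length of the deposited table, and the log2(CPM+1) scale compresses changes at its low end.

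**Figure D4:**
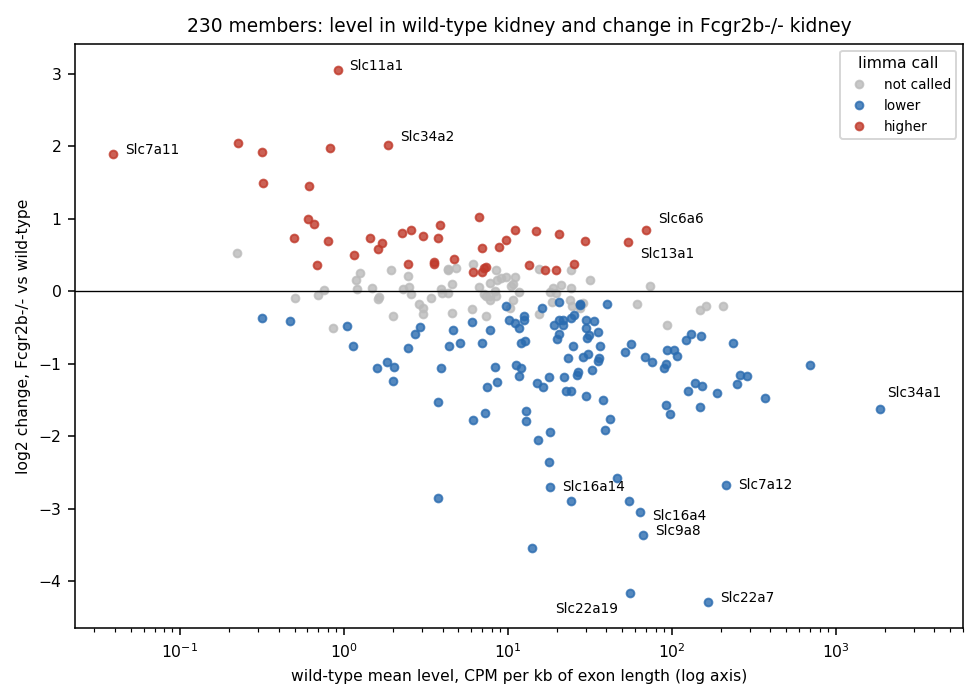
Each of the 230 members is placed by its mean wild-type level in CPM per kb (log axis) and its log2 change in Fcgr2b-/- against wild-type kidney, coloured by the limma call. The largest rise, Slc11a1 at 3.05, lies at 0.916 CPM per kb, and the deepest falls, Slc22a7 at -4.29 and Slc22a19 at -4.17, lie at 167 and 55.5 CPM per kb.

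What remained different between double-mutant and wild-type kidney was small in number. Of 230 members 17 were lower and 5 higher, 22 in all, against 7.29% of all genes called, 2.77% lower and 4.52% higher. In 52 members the double-mutant values lay wholly below wild-type and in 9 wholly above (11.3% and 6.59% of all genes), and the median was -0.14. The 5 that were higher were Slc11a1, Slc15a3, Slc16a3, Slc7a11 and Slc41a2. Those lower included Slc16a14, Slc4a4, Slc7a8, Slc2a2, Slc22a6, Slc3a2, Slc9a2 and Slc9a8 (above), Slc30a2 (-0.70 ± 0.15), Slc10a5 (-0.45 ± 0.12), Slc38a4 (-0.79 ± 0.18) and Slc35f1 (-0.51 ± 0.13), an orphan of the nucleotide sugar family. Without wild-type library 1 these last 4 stood at -0.67, -0.37, -0.77 and -0.49, and without library 4 at -0.72, -0.40, -0.74 and -0.53. Of the 22 calls, 2 held when any 1 of the 16 libraries was left out, those of Slc11a1 and Slc9a2. In limma-voom Slc11a1 was not called (2.62, limma adjusted p = 0.0529), nor were Slc15a3 (1.76) and Slc9a8 (-0.48). With only the 2 groups in the fit the calls of Slc10a5 (-0.45) and Slc41a2 (0.52) were lost. Leaving out wild-type library 1 or 4 left 2 calls, wild-type library 3 left 10, double-mutant library 1 left 11 and double-mutant library 2 or 3 left 3. Without double-mutant library 4, the one low in macrophage markers, 32 members were called, 22 lower and 10 higher, and without Fcgr2b-/- library 4 there were 33. Of the macrophage markers 18 of 19 were higher in the double mutant than in wild-type and 15 of 19 higher than in Rhbdf2-/- kidney, and their part in the rises of Slc11a1, Slc15a3, Slc16a3 and Slc7a11 was not tested.

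Against Rhbdf2-/- kidney, the control that shares the Rhbdf2 genotype, 6 members were lower and 4 higher in the double mutant, where 3.5% of all genes were called, 1.18% lower and 2.32% higher. In 37 members the double-mutant values lay wholly below Rhbdf2-/- and in 5 wholly above (10.4% and 5.3% of all genes). Slc16a14, Slc9a8, Slc9a2 and Slc30a2 were among those lower, at -2.26 ± 0.34, -0.70 ± 0.13, -0.56 ± 0.08 and -0.58 ± 0.15. Higher were Slc11a1 (2.17 ± 0.41), Slc15a3 (1.47 ± 0.37), Slc7a11 (1.28 ± 0.31) and Slc16a3 (0.89 ± 0.21). All 4 of these rises lost their call in limma-voom, at 2.53, 1.73, 3.15 and 1.26 in that order, and with only the 2 groups in the fit, where Slc11a1 came nearest (limma adjusted p = 0.0542). In limma-voom the calls of Slc9a8 (-0.70) and Slc30a2 (-0.60) were lost as well. Slc7a11 stood at 2.92 on the deposited log2 CPM. Calls of Slc16a14 and Slc9a2 held when any 1 library was left out. Leaving out a wild-type library left 4 to 6 calls, Rhbdf2-/- library 1, 2 or 3 left 2, 3 and 2, double-mutant library 1, 2 or 3 left 4, 2 and 2, and leaving out Fcgr2b-/- library 4 or double-mutant library 4 gave 18 and 19.

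Loss of Rhbdf2 alone gave 0 called members, and 0.0% of all genes were called by limma. At an unadjusted p below 0.05 there were 6 members and 272 genes in all, and 0 members were called by limma-voom or in the authors' deposited table. Changes ran from -0.65 to 0.55 on the log2 scale with a median of 0.00. The smallest p-values were those of Slc35f1 (-0.47 ± 0.13), Slc38a4 (-0.61 ± 0.18) and Slc7a8 (-0.47 ± 0.15), whose Rhbdf2-/- values lay below wild-type without overlap. In 11 members the Rhbdf2-/- values lay wholly below wild-type and in 0 wholly above (3.2% and 2.53% of all genes). A p that misses the threshold does not show that the genotypes were alike.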

How the data were processed

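Polyadenylated RNA of 16 whole kidneys was sequenced as single reads. The deposited table gives normalised log2 CPM with a small prior, per the file headers, and the authors' log2 fold changes and FDR-adjusted p-values for 4 kidney comparisons. The builds mm10 and GRCm38 come from the submitters' processing notes. The sources used here do not state the aligner, counter, strand setting or treatment of near-identical copies. An F statistic deposited by the authors beside each comparison is a score and was not used. Values were turned back to CPM, and the 815 low values used to recover reads were all whole multiples of 1 read within 0.1 read. limma 3.58.1 with a mean trend (R 4.3.3) was fitted to log2(CPM+1) of all 16 libraries and 12315 genes with 4 group means and 6 contrasts, and p-values were adjusted by Benjamini-Hochberg over all genes with a threshold of 0.05. Errors of changes are standard errors of that fit, which was also tested on simulated data. Labels do not say that libraries come from separate mice, so a p-value here sets a difference against the spread among libraries, part of which may be technical.

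Members, substrate groups and gene lists were chosen with earlier results of these data known. Genes were named by a written rule: a list of well-known carriers whatever their result, the largest called changes without overlap in each comparison among members whose mean log2 CPM reached 1, the 3 highest members of each substrate group, and the smallest p-values for Rhbdf2 loss and for the interaction. Alternatives were a pseudocount of 0.1, the deposited log2 CPM, a minimum mean of 1 CPM, limma-voom on recovered reads, median centring, removal of mitochondrial genes, only the 2 groups compared, each library left out and the authors' calls. Values of some genes are not reported here.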

Additional observations from a re-analysis of the deposited data

Results flagged for a closer look

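In 260 groups of 4 kidney libraries (65 described carriers in 4 genotypes), 22 held a library that stood far from the other 3 by Dixon's criterion, where chance gives about 5 in 100 groups. Double-mutant library 4 accounted for 4 of them: Slc22a7 at 187 CPM against 245 to 257 in the other 3, Slc5a2 at 423 against 277 to 294, Slc6a8 at 305 against 258 to 259 and Slc39a14 at 53.4 against 35.6 to 37.9. Fcgr2b-/- library 2 stood above its group for Slc3a1 at 501 CPM, Slc2a2 at 25.3 and Slc6a6 at 1060. Fcgr2b-/- library 3 stood above for Slc34a2 at 82 CPM, against 27.8 to 35.8 in the other 3, and for Slc40a1 at 159.

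Among wild-type libraries, number 1 was high for Slc5a12 at 606 CPM and Slc4a4 at 1950 and low for Slc9a8 at 520. Number 2 was low for Slc17a1 at 439 CPM and Slc2a9 at 18.9 and high for Slc14a2, a urea carrier of the inner medulla, at 108 against 39.6 to 46.8. Number 3 was high for Slc6a18 at 1320 CPM. In the Rhbdf2-/- group, library 1 was high for Slc22a6 at 630 CPM and Slc34a2 at 14.9, library 2 low for Slc22a7 at 342, library 3 high for Slc16a3 at 2.84 and library 4 low for Slc3a1 at 810. Double-mutant library 1 was low for Slc2a9 at 16.1 CPM.

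The change with Fcgr2b loss differed between mice with and without Rhbdf2 by a test of the interaction (limma, adjusted over all genes) in 29 of the 65 described carriers. Of all genes 27.8% were called. The described carriers were picked in part for large called changes or a small interaction p, so many calls among them were to be had in advance. A positive value means that the change was more positive in Rhbdf2-/- mice. Of these calls, some were lost when 1 of the 16 libraries was left out: Slc5a2 in 12 such fits, Slc38a2 in 11, Slc22a26 and Slc13a1 in 7 each and Slc38a4 in 6. Limma-voom did not call Slc22a26 (2.78), Slc5a2 (0.93) or Slc16a3 (-1.25), removal of mitochondrial genes ended the calls of Slc5a2 (0.94) and Slc38a2 (-0.53), and median centring that of Slc38a2 (-0.53). Among organic ion carriers the interaction was 3.75 for Slc22a19, 3.49 for Slc22a7, 2.55 for Slc22a29, 2.42 for Slc17a2, 2.30 for Slc10a2, 2.21 for Slc22a26 and 1.72 for Slc10a5. Among amino acid carriers it was 2.46 for Slc7a12, 1.37 for Slc7a8, 1.28 for Slc3a1, 1.01 for Slc6a18, 0.79 for Slc38a4, -0.55 for Slc38a2 and -0.66 for Slc1a5.

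Glucose and phosphate carriers gave 0.92 for Slc5a2, 0.94 for Slc2a2, 1.19 for Slc34a1, 2.11 for Slc34a3 and -1.55 for Slc34a2. Monocarboxylate and sulfate carriers gave 2.63 for Slc16a4, -1.03 for Slc16a3 and -0.62 for Slc13a1. Bicarbonate and proton carriers gave 2.67 for Slc9a8, 0.93 for Slc4a4, 0.76 for Slc9a3 and 0.63 for Slc9a2. The remaining ones were 1.49 for Slc35f1, 1.07 for Slc30a2 and -0.79 for Slc12a4, a potassium chloride carrier.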

How the results depend on the processing

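With each library left out in turn, the number of members called ranged from 147 to 163 for Fcgr2b-/- against wild-type kidney, 108 to 135 for the double mutant against Fcgr2b-/-, 2 to 33 for the double mutant against wild-type, 2 to 19 for the double mutant against Rhbdf2-/-, 0 to 0 for Rhbdf2-/- against wild-type and 68 to 100 for the interaction. Calls held in every such fit for 141 of 160 members in the first comparison and 99 of 129 in the second. With only the 2 groups compared in the fit, 42 members were called in the double mutant against wild-type in place of 22, and limma-voom called 2 in place of 10 against Rhbdf2-/-, where the cause was not tested. The other alternatives gave 150 to 163, 93 to 129 and 78 to 89 members in the first 2 comparisons and the interaction. The authors' deposited table called 162 members in Fcgr2b-/- against wild-type kidney, 158 of them shared and in the same direction, and it missed the threshold for Slc6a19 (-0.67, adjusted p = 0.0521). With only the 2 groups in the fit, Slc7a9 (0.66), Slc5a8 (1.01), Slc22a2 (0.52), Slc5a2 (0.62) and Slc4a4 (0.56) were not called in the double mutant against Fcgr2b-/- kidney, and Slc39a14 (-0.30) was called in Fcgr2b-/- against wild-type. No result for a named gene reversed under any alternative run. No paired analysis was possible because the numbers in the library titles are each library's own and groups share none. The authors' table holds neither the interaction nor the comparison with Rhbdf2-/-, and the fit with 2 groups does not exist for the interaction. Depth limits members near 1 CPM, where the fewest reads of a member in a library were 4.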
